A study of Homo sapiens with 3 samples.

Results

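SFPQ, NONO, PSPC1 and NEAT1 are 4 genes whose products build paraspeckles, and their transcripts were examined here for MATR3 crosslink clusters. The members are all clusters that the deposited tables assign to these gene names, 97 of 115227 clusters in the series. Of these, 70 came from replicate 1 of the wild type (WT1), 27 from replicate 2 (WT2) and 0 from the MATR3 knockout (KO). The rule uses the gene names alone, although the 4 genes were picked with earlier results of these data known.

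The data are PAR-CLIP libraries from HAP1, a human cell line that is nearly haploid and descends from the chronic myeloid leukaemia line KBM-7. PAR-CLIP crosslinks a protein to RNA that carries 4-thiouridine, and crosslinked positions are read as T-to-C changes. The WT group is 2 libraries of purchased wild-type HAP1 cells and the KO group is 1 library of a purchased MATR3 knockout HAP1 line; the design text lists the latter as negative control. All 3 were UV-crosslinked, treated with RNase T1 and recovered on anti-FLAG beads, and the labels record no tag on MATR3 and no separate cultures or clones. The tables hold crosslinked clusters and no RNA levels, so the identity of the line was not checked by marker expression, and the part that transcript abundance plays in any cluster number below was not tested.

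The libraries held 87230 clusters with 2668797 reads (WT1), 27155 with 1558995 reads (WT2) and 842 with 224142 reads (KO). The median cluster had 20, 39 and 243 reads. MATR3 itself had 53 clusters in WT1, 26 in WT2 and 0 in KO. With only 842 clusters in KO, this 0 is no check of the knockout. Because each library was called on its own and the reads carry no molecular identifiers in the tables, intervals below are 95% Wilson intervals for counting error only. Genotypes were not tested against each other, since KO is 1 library: the smallest p-value a permutation of 3 libraries can give is 0.333.

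Paraspeckles are nuclear bodies that form on the long noncoding RNA NEAT1. SFPQ, NONO and PSPC1 are the paralogous DBHS proteins, which dimerise, bind RNA and coat NEAT1; SFPQ and NONO are needed to keep the body together. NEAT1 is made as a short polyadenylated isoform and a long isoform that share their 5' part, and only the long isoform builds the body. MATR3 is a nuclear matrix protein with RNA recognition motifs that is known to associate with the SFPQ-NONO complex.

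The sites that carry the comparison between replicates are the stretches covered by a cluster in both WT libraries. There were 12 such stretches, each in a cluster assigned to the same gene in both tables. Reads given for such a site are those of the whole cluster in each library, which can be longer than the stretch. Of these, 11 are printed 5' to 3' as RNA sense in DNA letters, from the deposited cluster sequences, with pyrimidine runs (C or T) of at least 6 nt in capitals; where the shared stretch was longer than 30 nt, its 3'-most 30 nt are shown. Positions are those of the tables, for which the submitters' processing notes name hg38.

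NEAT1 chr11:65424331-65424353 (+): caTCTTCTaaattgagcctccgg
NEAT1 chr11:65425331-65425360 (+): tctcacaggcaggggaaatgtctttaccag
NEAT1 chr11:65426150-65426179 (+): caTTTCCTTCTTCCCTTTaagtttcacttg
NEAT1 chr11:65426469-65426498 (+): attactaatcaCTTTTCTTCCCCTTTacag
SFPQ chr1:35181603-35181632 (-): ttttataCTTCTCCTaatctttaaaaactg
SFPQ chr1:35178133-35178153 (-): tacccccaatctttatctctg
NONO chrX:71290908-71290937 (+): CTTTTTTCTCTTTaCCTCTTaatacttacg
PSPC1 chr13:19761643-19761671 (-): tttctataatctcattccaccactccatg
PSPC1 chr13:19761302-19761327 (-): aaCTCTCCTTTTCTCCTattttactg
PSPC1 chr13:19761218-19761246 (-): tcaTTTCCTTatcccagCTTTTCTCCTTg
PSPC1 chr13:19730120-19730147 (-): TCTTTTCTaaTCTTTCTaaattcatcat

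All 4 genes had clusters in both WT libraries and none in KO. Among 38386 protein-coding and lncRNA genes of RefSeq (GRCh38.p14), 22.3% had a cluster in WT1, 15% in WT2, 13.9% in both and 1.55% in KO. Among the 14197 of these that are 16.8 to 112 kb long, the length range of the 4 genes, 34.6% had a cluster in WT1, 23.5% in WT2, 22% in both and 1.88% in KO. At the WT shares of all clusters, a library of 842 clusters would hold 0.676 (WT1) or 0.837 (WT2) clusters of these genes, so their absence from KO was not distinguishable from a WT-like share at this depth.

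The number of clusters per gene was 10 ± 9.90 for SFPQ, 9.5 ± 3.54 for NONO, 15 ± 7.07 for PSPC1 and 14 ± 9.90 for NEAT1 (mean and SD, n = 2 WT libraries). The WT2 and WT1 values were 3 and 17, 7 and 12, 10 and 20, and 7 and 21, so the ranges over the libraries overlapped for every pair of genes. Within each library, PSPC1 had more clusters than NONO and SFPQ, and NEAT1 more than SFPQ; NEAT1 exceeded PSPC1 in WT1 only, NONO exceeded SFPQ in WT2 only, and NEAT1 exceeded NONO in WT1 and equalled it in WT2. Together they made up 0.0802% of the clusters of WT1 (0.0635 to 0.101%) and 0.0994% of WT2 (0.0683 to 0.145%). SFPQ had 5.67 times as many clusters in WT1 as in WT2, NEAT1 3 times, PSPC1 2 times and NONO 1.71 times, beside 3.21 times for all clusters. For each gene the intervals of its share of clusters in the 2 libraries overlapped. Per kb of RefSeq gene length, SFPQ had 1.01 clusters in WT1 and 0.179 in WT2, NEAT1 0.923 and 0.308, NONO 0.684 and 0.399, and PSPC1 0.179 and 0.0895. PSPC1 was thus the most thinly covered gene in both libraries, and its RefSeq length of 112 kb is the greatest of the 4.

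**Figure D1:**
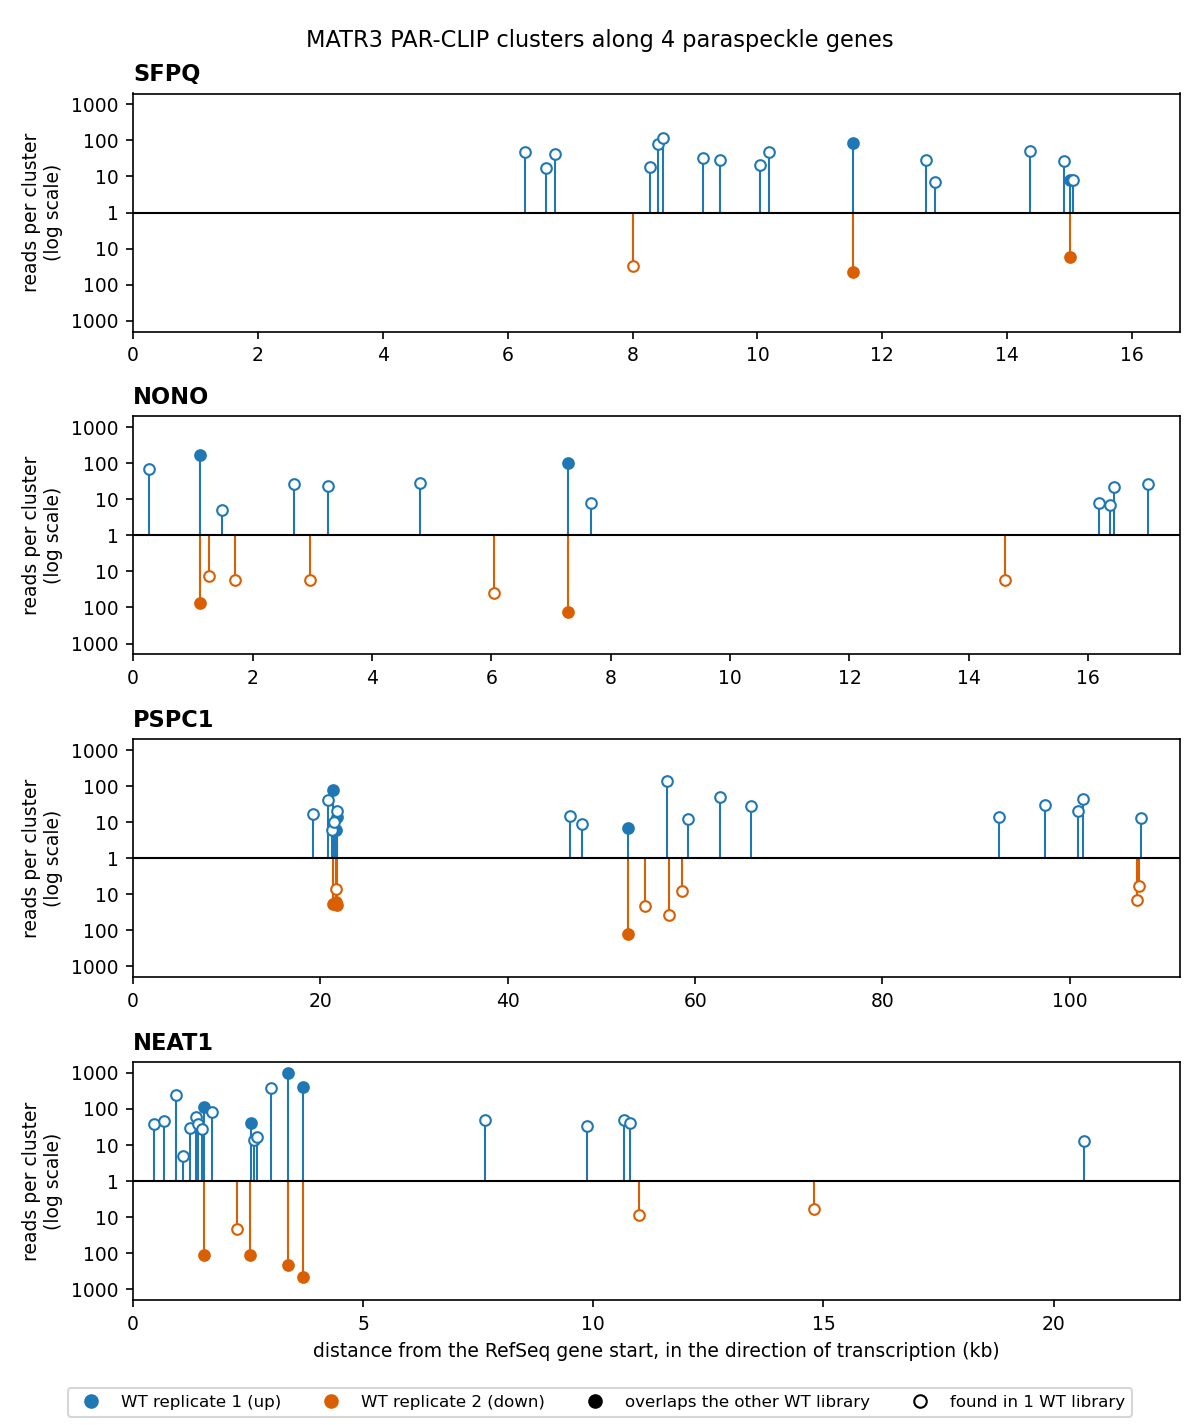
Position of each cluster along the 4 genes (x axis, kb from the RefSeq gene start) against its reads (y axis, log scale, WT1 upward and WT2 downward); filled points overlap a cluster of the other WT library. The NEAT1 clusters crowd into the first 4 kb, the SFPQ clusters begin at 6.26 kb, and the PSPC1 clusters form a group near 21 kb.

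NEAT1 (chr11:65422798-65445540 in RefSeq, plus strand, lncRNA) carried the most reads of the 4 genes. Its reads numbered 2717 in 21 clusters of WT1, 915 in 7 clusters of WT2 and 0 in KO. The cluster class was lincRNA exon throughout. Reads per cluster ran from 5 to 980 with a median of 42 in WT1, and from 6 to 448 with a median of 110 in WT2, so both medians lay above those of all clusters, 20 and 39.

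Clusters were concentrated at the 5' end of NEAT1. Within 4 kb of the gene start, 17.6% of the gene's length, lay 16 of 21 clusters and 93.2% of the reads of WT1, and 5 of 7 clusters and 98.4% of the reads of WT2. The limit of 4 kb was chosen after the positions were seen; the last cluster inside it ended 3712 nt from the start, and the next began at 7638 nt in WT1 and at 10973 nt in WT2. This 5' part is where both NEAT1 isoforms overlap. The clusters farther along had 13 to 50 reads in WT1 and 6 to 9 in WT2. The last of them ended at 20668 nt in WT1, within the part that only the long isoform has.

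A pair of neighbouring sites held most NEAT1 reads. The site at 3345 to 3382 nt from the gene start had 980 reads in WT1 and 207 in WT2, in clusters of 79 and 38 nt. The site at 3666 to 3701 nt had 415 and 448 reads, in clusters of 52 and 36 nt. Together these clusters held 51.3% of the NEAT1 reads of WT1 and 71.6% of those of WT2, and both sequences above contain long pyrimidine runs. Their rank by reads differed between the libraries, the first being deeper in WT1 and the second in WT2. By distinct read sequences the first site was ahead in both, with 115 against 47 in WT1 and 17 against 14 in WT2. The cluster at the first site held 24 converted positions over its 79 nt in WT1 and 7 over its 38 nt in WT2.

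The cluster of WT1 at the second site reached further 3' and held, next to its last base, the word AATAAA, the hexamer known as the canonical polyadenylation signal, at 3706 to 3711 nt from the gene start. Its last 30 nt are shown with that word in capitals.

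NEAT1 chr11:65426480-65426509 (+): cttttcttcccctttacagcacaAATAAAg

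The word was searched on the sense strand only. It was held by 1.61% of all clusters of WT1, 1.19% of WT2 and 3.09% of KO, and by 2 member clusters, this one and a PSPC1 cluster of WT1. The match is a description of the sequence.

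The remaining NEAT1 pairs were smaller. The site at 1534 to 1556 nt had 112 reads in WT1 and 110 in WT2, and the site at 2531 to 2563 nt had 42 and 114. Among the NEAT1 clusters found in WT1 only, the deepest lay at chr11:65425776-65425812 with 388 reads and at chr11:65423696-65423741 with 238 reads. WT2 had no NEAT1 cluster overlapping either, although it had pairs on both sides of the first.

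SFPQ (chr1:35176380-35193145, minus strand) encodes the larger partner of NONO, a splicing and transcription factor. Its clusters held 659 reads in WT1, 93 in WT2 and 0 in KO. Of the 17 clusters in WT1, 6 were intronic, 4 lay in the 3' UTR and 7 had the class processed transcript. Of the 3 in WT2, 1 was intronic and 2 had the class processed transcript.

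The SFPQ clusters lay in the 3' part of the gene. In WT1 the intronic clusters spanned 6.26 to 8.51 kb from the gene start, the 3' UTR clusters 9.11 to 10.2 kb and the processed transcript clusters 11.5 to 15.1 kb. No cluster of either library lay nearer the start. The 2 sites found in both WT libraries belonged to the last group. The site at 11512 to 11543 nt had 83 reads in WT1 and 46 in WT2, and was the deepest named SFPQ cluster of the latter. The site at 14993 to 15013 nt had 8 and 17 reads. The deepest SFPQ cluster of WT1 was intronic, with 116 reads at chr1:35184638-35184675, and had no counterpart in WT2.

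Between the 3' UTR and processed transcript clusters, both WT libraries also held clusters on the same strand to which the tables give no gene. There were 4 in WT1, with 18 to 74 reads each, and 1 in WT2, with 189 reads, which overlapped none of the 4. All of these clusters lay 10.5 to 11.5 kb from the gene start and inside the RefSeq interval of SFPQ, which no other RefSeq gene overlaps. Counting them, 11 of 21 clusters in the interval lay beyond the annotated 3' UTR clusters in WT1, and 3 of 4 in WT2. The 189 reads exceed the 93 reads of all named SFPQ clusters of WT2.

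NONO (chrX:71283635-71301168, plus strand) encodes the common partner of both other DBHS proteins. Its clusters held 496 reads in WT1, 314 in WT2 and 0 in KO. In WT1, 9 of 12 clusters were intronic, and the coding sequence, the stop codon and the 3' UTR had 1 each, with 7, 22 and 27 reads. In WT2 all 7 clusters were intronic. The exonic assignments are uncertain wherever processed copies of the mRNA exist in the genome, because the handling of reads with several matches is not given in the sources used here.

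NONO had 2 sites found in both WT libraries, of which the one shown above is described. The site at 7272 to 7303 nt from the gene start had 101 reads in WT1 and 137 in WT2, and was the deepest NONO cluster of WT2. Its cluster had the same start and end, chrX:71290906-71290937, in both tables. Its sequence is a pyrimidine run broken by few other bases.

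PSPC1 (chr13:19671205-19782945, minus strand) encodes the third DBHS protein, a marker of the paraspeckle. Its clusters held 577 reads in WT1, 277 in WT2 and 0 in KO. Introns had 15 of 20 clusters in WT1 and 8 of 10 in WT2. The others, 5 and 2, had the class of nonsense-mediated decay transcripts. RefSeq places the 3' end of PSPC1 within the interval of MPHOSPH8, but no PSPC1 cluster of either library lay in that overlap.

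A group of intronic PSPC1 sites lay about 21 kb from the gene start. In WT1 a window of 3 kb, 2.68% of the gene's length, held 8 of 20 clusters with 194 of 577 reads. In WT2 it held 4 of 10 clusters with 62 of 277 reads. The windows were placed where each library had most clusters, and both fell on the same stretch, at 19.2 to 21.8 kb and 21.3 to 21.7 kb. It contained 3 of the 4 PSPC1 sites found in both libraries, with 80 and 19, 6 and 16, and 14 and 20 reads in WT1 and WT2.

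The fourth shared PSPC1 site, at 52799 to 52826 nt, had 7 reads in WT1 and 128 in WT2. By reads it was the deepest PSPC1 cluster of WT2 and among the weakest of WT1. These reads came from 2 distinct sequences in WT1 and 3 in WT2. The deepest of WT1, at chr13:19725986-19726018 with 139 reads, was not found in WT2. Reads at the fourth shared site therefore differed widely between the WT libraries, while its numbers of distinct sequences were close.

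**Figure D2:**
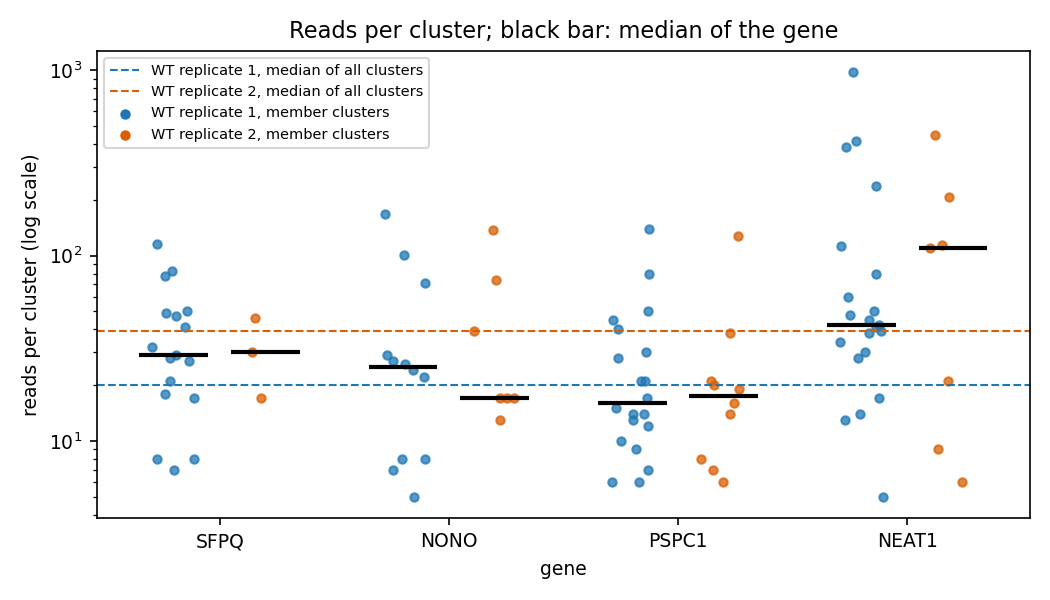
Reads per cluster (y axis, log scale) for each gene in the WT libraries; black bars are the medians of the gene and dashed lines the medians of all clusters, 20 in WT1 and 39 in WT2. NEAT1 medians, 42 and 110, lie above both lines. In WT2 the SFPQ, NONO and PSPC1 medians, 30, 17 and 17.5, lie below 39, while in WT1 SFPQ and NONO, at 29 and 25, lie above 20 and PSPC1, at 16, below it.

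Agreement by position was then set against all clusters. Of the 27 member clusters of WT2, 12 shared at least 1 nt of the same strand with a WT1 cluster, a share of 44.4% (27.6 to 62.7%), beside 19.5% of all 27155 clusters. In the other direction 12 of 70, or 17.1% (10.1 to 27.6%), overlapped, beside 6% of all 87230 clusters. Both intervals lay above the value for all clusters, as a description of called intervals. By gene, the WT2 clusters found in WT1 were 2 of 3 for SFPQ, 2 of 7 for NONO, 4 of 10 for PSPC1 and 4 of 7 for NEAT1. Without NEAT1 the share was 40% (21.9 to 61.3%), and among intronic member clusters alone 37.5% (18.5 to 61.4%), whose interval includes the 20.3% of all intronic clusters. With the same number of clusters taken from each WT library it was 29.6%, beside 11.7% of all clusters.

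Pooled over the 4 genes, the shared clusters were deeper than the others, but not in every gene. They had a median of 81.5 reads in WT1 and 92 in WT2, against 28 and 17 for the others. In PSPC1 the order was the opposite in WT1, with a median of 10.5 reads in shared clusters and 19 in the others, and in SFPQ the WT2 medians were 31.5 and 30. Unshared clusters of WT1 reached 388 reads in NEAT1, 139 in PSPC1 and 116 in SFPQ. The shared clusters held 45.3% of the member reads of WT1 and 83.6% of those of WT2; over all clusters of the libraries the same shares were 15.1% and 26.9%. Of the 9 member clusters of WT2 with at least the library's median of 39 reads, 8 were found in WT1 (88.9%, 56.5 to 98.0%), beside 23.6% of all clusters that deep. Of those with fewer reads 4 of 18 were found, 22.2% (9 to 45.2%), beside 15.3% of all such clusters. In the other direction, the 46 member clusters of WT1 with at least its median of 20 reads gave 8 matches, 17.4% (9.09 to 30.7%), beside 8.59% of all, and the 24 with fewer reads gave 4, 16.7% (6.68 to 35.9%), beside 3.22%. The intervals of the classes did not overlap in WT2, and in WT1 the classes had nearly the same share.

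**Figure D3:**
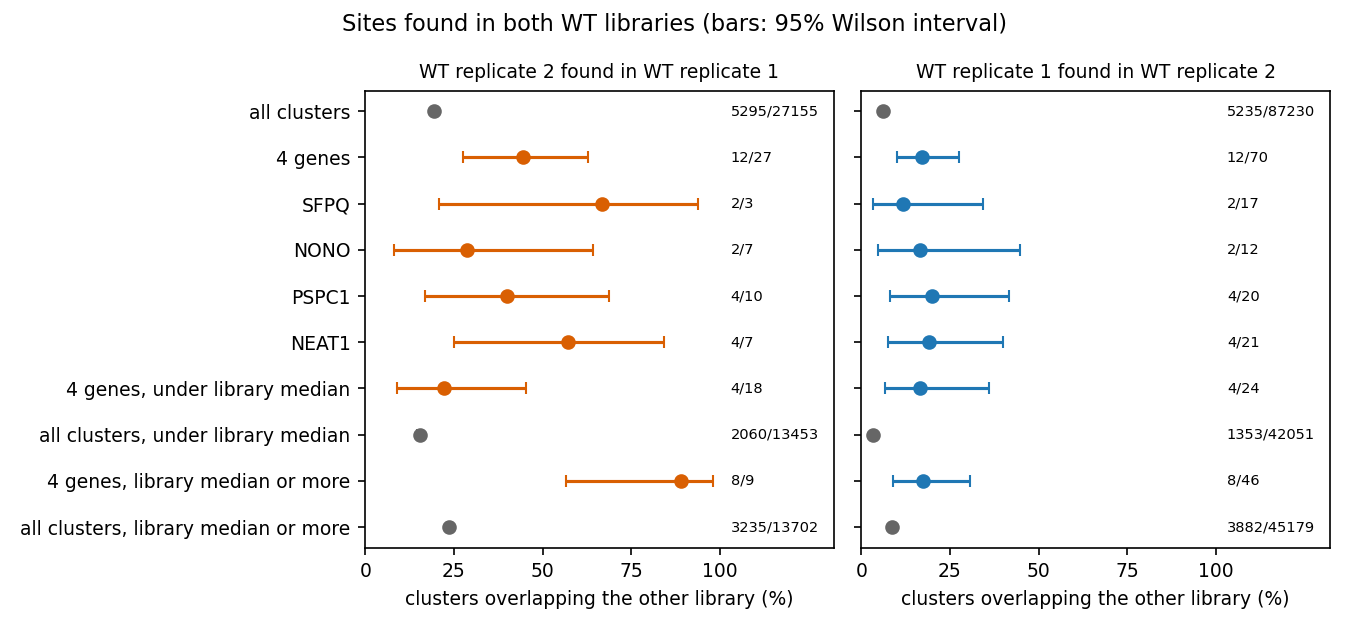
Share of clusters that overlap a cluster of the other WT library (x axis, percent; bars are 95% Wilson intervals, counts at the right) for the 4 genes together and singly, below and from the library's median of reads, and for all clusters (grey). The 4 genes sit at 44.4% against 19.5% on the left and 17.1% against 6% on the right.

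The classes of the member clusters were set beside those of the whole libraries. Introns held 42.9% of member clusters in WT1 (31.9 to 54.5%) and 59.3% in WT2 (40.7 to 75.5%), a mean of 51.1 ± 11.6% (SD, n = 2), while they held 84.1% and 83.1% of all clusters. NEAT1 has no intronic cluster. Without it the shares were 61.2% (47.2 to 73.6%) and 80% (58.4 to 91.9%). The second interval includes the value for all clusters of WT2. In WT1 the share stayed lower, with the processed transcript and 3' UTR clusters of SFPQ among the rest.

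T-to-C conversion within member clusters differed by gene. Of the T events read, 6.16% were converted in the NEAT1 clusters of WT1 (5.92 to 6.41%) and 5.63% in those of WT2 (5.23 to 6.06%), below the 7.98% and 7.55% of all clusters. NONO had 8.40% (7.68 to 9.18%) and 8.77% (7.94 to 9.66%). SFPQ had 7.70% and 7.09%, and PSPC1 7.05% and 8.10%. The intervals count every T event as independent, although reads repeat the same sequences, so they are too narrow. NEAT1 had 7.99 reads per distinct sequence in WT1 and 19.1 in WT2. All 4 genes together had 6.75 ± 0.0708% (SD, n = 2), and NEAT1 supplied 2717 of the 4449 and 915 of the 1599 member reads. The share of a cluster's reads with a change was as low as 30% among the NEAT1 clusters of WT1 and 60.9% among those of WT2, and it was 64.5% in the cluster with 980 reads. The median over NEAT1 clusters was 80% in WT1 and 95.5% in WT2, against library medians of 94.1% and 97.47%. The deposited clusters all have at least 2 converted positions, so they are selected on conversion.

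**Figure D4:**
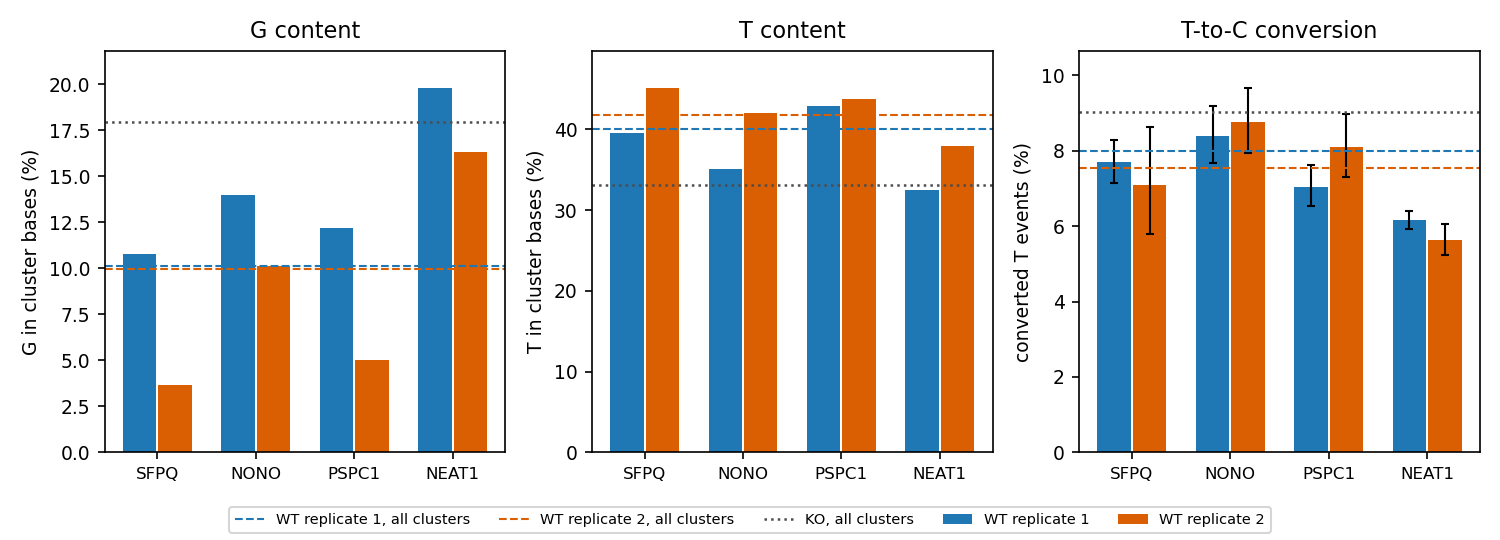
G content and T content of cluster bases and converted T events (y axes, percent; error bars on the last panel are 95% Wilson intervals) for each gene in the WT libraries, with dashed and dotted lines for all clusters of WT and KO. NEAT1 has the highest G content, 19.8% and 16.3%, and the lowest conversion, 6.16% and 5.63%, of the 4 genes in both libraries. G and T contents count cluster bases whatever their reads, while conversion counts T events read.

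Among the 4 genes, NEAT1 clusters were the richest in G in both WT libraries. G made up 19.8% of NEAT1 cluster bases in WT1 and 16.3% in WT2, against 10.1% and 9.99% of all cluster bases and 17.9% in KO. For SFPQ the G shares were 10.8% and 3.66%, for NONO 14.0% and 10.1%, and for PSPC1 12.2% and 5.02%. These shares count cluster bases and not reads. The clusters at the pair of NEAT1 sites with most reads were poor in G, with 8.86% and 5.77% in WT1 and 5.26% and 2.78% in WT2. T made up 32.5% and 38.0% of NEAT1 cluster bases, 42.9% and 43.7% of PSPC1 bases, and 40.1% and 41.8% of all. Within 4 kb of the NEAT1 start the median G share of clusters was 23.9% in WT1, against 9.68% farther along. In WT2 it was 17.4% against 19.7%, so the libraries differed in this order. The WT2 value farther along rests on few clusters, of 6 to 9 reads each, since 5 of 7 lay within 4 kb. The most G-rich member cluster of WT1 with at least 40 reads lay within 4 kb of the NEAT1 start, at chr11:65423449-65423480 with 46.9% G and 45 reads. It was found in WT1 only, and its last 30 nt are shown with runs of at least 3 G in capitals.

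NEAT1 chr11:65423451-65423480 (+): tGGGtgcgaagccaggcccctGGGcggagg

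The word ATCTT, known as a MATR3-bound word, was searched on the sense strand of the cluster sequences. It was held by 13 of 70 member clusters in WT1, 18.6% (11.2 to 29.2%), and by 8 of 27 in WT2, 29.6% (15.9 to 48.5%), a mean of 24.1 ± 7.82% (SD, n = 2). Of all clusters 14.7%, 15.6% and, in KO, 7.01% held it. The member share was not distinguishable from the rest of the library in WT1, and in WT2 the lower limit lay just above the value for all. Among the shared sites, the stretches shown for both SFPQ sites, the NEAT1 site at 1534 nt and the PSPC1 site at 52799 nt contain it. A run of at least 6 pyrimidines was present in 46 of 70 and 19 of 27 member clusters, beside 80.7% and 81.3% of all clusters in WT and 49.6% in KO.

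No KO cluster lay in or near the 4 genes. The nearest KO cluster on the chromosome was 781 kb from SFPQ, 194 kb from NONO, 1046 kb from PSPC1 and 410 kb from NEAT1. KO had 70, 30, 30 and 36 clusters on these chromosomes, on either strand.

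The wider set of paraspeckle components was described with a list of 42 genes, the 4 members included, taken from general knowledge. Of these, 25 had clusters in both WT libraries and 5 in KO, beside 13.9% and 1.55% of all protein-coding and lncRNA genes. Among genes 16.8 to 112 kb long the shares were 22% and 1.88%, but some listed genes are outside that range. Leaving out the 4 members, 21 of 38 had clusters in both, with medians of 5 clusters in WT1 and 1 in WT2, where the medians over all genes were 0. Over genes with clusters in both, the medians were 13 and 2 for these and 9 and 3 for all genes.

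Beyond the members, the most clusters by the geometric mean over the WT libraries were found in RBM14, which encodes an RNA-binding coactivator needed for paraspeckles, with 32 and 5. UBAP2L had 18 and 8, FIGN 15 and 7, CPSF7 16 and 6 and HNRNPF 16 and 6. CPSF7 encodes a subunit of cleavage factor I and HNRNPF a G-tract-binding splicing regulator. The members PSPC1, with 20 and 10, and NEAT1, with 21 and 7, were of similar size. The clusters of RBM14 and FIGN were all intronic in both libraries. MALAT1, the lncRNA of nuclear speckles whose gene lies next to NEAT1, had 10 clusters with 513 reads in WT1, 8 with 2736 reads in WT2 and 0 in KO. Per kb of RefSeq gene length this was 1.14 and 0.911 clusters, above NEAT1 in both libraries. The order depends on the length used, since 16 of 21 and 5 of 7 NEAT1 clusters lay in the first 4 of its 22.7 kb.

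Among the listed genes, 5 had KO clusters. None of them is a member, but the absence of the members from KO was not distinguishable from a WT-like share, as given above. DAZAP1 had 2 with 767 reads, and FIGN, HNRNPK, AHDC1 and HNRNPM had 1 each with 393, 296, 275 and 149 reads. DAZAP1 and HNRNPK encode RNA-binding proteins known to be needed for paraspeckles. In WT1 and WT2 DAZAP1 had 16 and 2 clusters, HNRNPK 2 and 1, HNRNPM 27 and 3, and AHDC1 none.

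**Figure D5:**
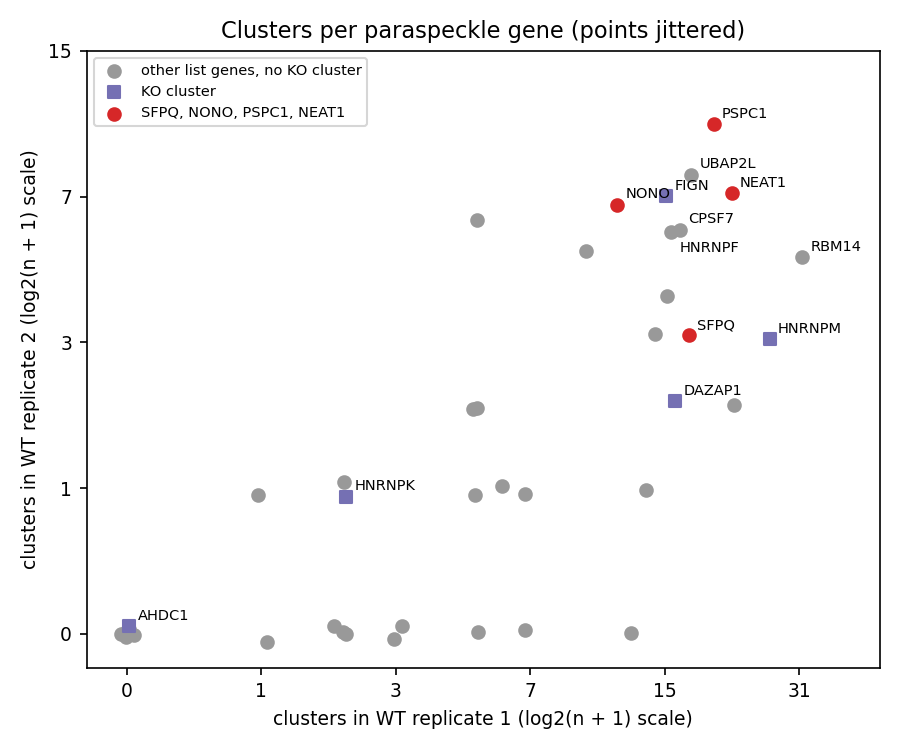
Clusters per gene in WT1 (x axis) and WT2 (y axis), both on a log2(n + 1) scale, for the 42 listed genes; squares have a KO cluster. The 4 members lie in the upper right, from SFPQ with 17 and 3 to PSPC1 with 20 and 10.

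Genes with the most similar counts were sought among the 5535 genes with clusters in both WT libraries, by Euclidean distance over log2(clusters + 1) and log2(reads + 1) in the 3 libraries. Nearest to SFPQ were ARHGAP5 (distance 0.24), PSMA3-AS1 (0.31) and CEP152 (0.32). Nearest to NONO were MND1 (0.06), SRSF11 (0.18) and SRRM2 (0.22). Nearest to PSPC1 were ADGRA3 (0.20), APC (0.32) and LIN28B (0.34). NEAT1 had more distant neighbours, SCD (0.59), CCNT2 (0.77) and FAM120C (0.79). For comparison with NEAT1, SCD had 30 clusters with 2513 reads and 8 with 1090 reads in WT1 and WT2. None of these 12 genes had a KO cluster, which the distance favours because it includes the KO counts, 0 for every member.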

How the data were processed

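The authors deposited 1 table of clusters per library, called in each library on its own. The deposited columns used are whole-number counts per cluster, per the file headers, with no normalisation: reads, distinct read sequences, converted positions, and converted and unconverted T events. A deposited fraction gives the share of a cluster's reads with a T-to-C change. The submitters' processing notes name cutadapt 1.8.3, Bowtie 1.1.2, hg38 and GRCh38.p5 without their roles; the cluster caller and its filters are not given in the sources used here.

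Clusters were selected by gene name, excluding repeat names. RefSeq (GRCh38.p14) matched all 4 genes and gave intervals and lengths; distances are counted from 1 at its gene start. Named genes are the 4 members, MATR3, MALAT1, the 5 other listed genes with most clusters, those with KO clusters, and the 3 nearest genes per member. A listed gene and a shared sequence are not reported here. Members and lists were chosen with earlier results of these data known. Alternatives were minimum reads, converted positions or clusters per gene, equal library size, gene interval, overlap, read weights, trimmed ends and leaving out a library. Overlap and word search were tested on simulated data. Python 3.11.15, numpy 2.4.6, pandas 2.3.3, scipy 1.17.1 and matplotlib 3.10.9 were used.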

Additional observations from a re-analysis of the deposited data

Results flagged for a closer look

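Clusters to which the tables give no gene lay on the SFPQ strand inside its RefSeq interval, with 4 in WT1, 1 in WT2 and 0 in KO. They enter none of the SFPQ counts by name, and they are given here for that reason. The WT2 cluster, at 11455 to 11490 nt from the gene start, overlapped none of those of WT1, the nearest of which lay at 11340 to 11370 nt. T-to-C changes were carried by 78.4 to 100% of the reads of these clusters in WT1 and by 97.9% in WT2. At the shares of WT1 and WT2, 842 clusters would hold 0.0386 and 0.0310 of them, so the KO value does not separate the genotypes.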

How the results depend on the processing

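Of 36 values under settings other than leaving out a library, 20 were classed as near the reported value and 16 as moved. The limit between these classes is not given here and was not the same for every result. A T-to-C share of 6.67% against 6.75% was classed as moved. The share of sites found in both WT libraries, 29.6% at equal library size against 44.4%, was classed as near. With at least 3 converted positions the WT mean number of clusters was 5 for SFPQ, 4 for NONO, 5 for PSPC1 and 9 for NEAT1. With equal library size it was 5.5 for SFPQ, 5 for NONO, 8 for PSPC1 and 11 for NEAT1, which then had the highest mean in place of PSPC1. Leaving out each WT library gave 3 to 17 for SFPQ, 7 to 12 for NONO, 10 to 20 for PSPC1 and 7 to 21 for NEAT1. The intronic share was 32.4% weighted by reads and 70.6% without NEAT1, and 42.9 to 59.3% by library. The T-to-C share was 6.67% with at least 10 reads, 5.56% with at least 3 converted positions and 9.34% as a median over clusters; by library it was 6.70 to 6.80%. The share of sites found in both WT libraries was 17.1% seen from WT1, 88.9% at the library's median of reads or more and 100% at 40 reads or more, a limit just above unshared clusters of 38 and 39 reads. Listed genes with clusters in both WT libraries numbered 14 of 42 when 3 clusters were required in each. The share of all genes at that limit is not given here, so this count has no comparison. The filters leave fewer clusters by construction; otherwise the cause was not tested. For sites found in both WT libraries, both limits on reads, introns only and leaving out NEAT1 were chosen after seeing the data. No paired analysis was possible because there is 1 KO library and no result comes from a test. The number of reads in called clusters, and not the sequencing depth, is what the tables give.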

Other observations

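Downstream of NONO, on the same strand, lay clusters assigned to ITGB1BP2, the gene of a muscle integrin-binding protein. WT1 had 6 of them with 251 reads, between 2.92 and 3.75 kb past the RefSeq end of NONO, and WT2 had 1 with 161 reads. That cluster had the same start and end in both tables, chrX:71304919-71304953, with 42 reads in WT1. KO had none there. No cluster named for another gene lay within 10 kb of SFPQ, PSPC1 or NEAT1 in any library.

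The deposited share of reads ending in G was not comparable between strands. For clusters whose sequence ends in G, its mean was 90.9% on the plus strand and 1.57% on the minus strand in WT1, 99.3% and 1.70% in WT2, and 99.4% and 5.16% in KO. It would therefore set the minus-strand genes SFPQ and PSPC1 apart from NONO and NEAT1, and it was used for no result. By the sequences themselves, 73.5% of clusters in WT1, 94.4% in WT2 and 72.1% in KO ended in G, the base after which RNase T1 cuts.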
